A study of Mus musculus with 6 samples.

Results

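A group of 10 genes that read out and restrain the RAS-ERK mitogen-activated protein kinase (MAPK) pathway were followed across 6 mouse gliomas: the ETS transcription factors Etv1, Etv4 and Etv5, the phosphatases Dusp4 and Dusp6, and the inhibitors Spry1, Spry2, Spry4, Spred1 and Spred2. They were chosen by name, as known transcriptional output of receptor tyrosine kinases. Of the 10 genes, 9 had a probe under their symbol, with 19 probes among the 45281 on the array, and 8 were detected well enough to be tested among 12242 genes. Spry1 had no probe under its symbol in the annotation used, and the single Spry2 probe was not detected on any of the 6 arrays.

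Receptor tyrosine kinases such as the PDGF receptors activate RAS, which drives the kinases RAF, MEK and ERK in turn. Active ERK raises transcription of the Etv1, Etv4 and Etv5 factors and, at the same time, of proteins that limit the signal: DUSP phosphatases take the activating phosphates off ERK, while Sprouty and Spred proteins act upstream, at the level of the receptor, RAS and RAF. Messenger RNA of these genes is widely used as a readout of the pathway, and in glial progenitors they respond to PDGF and FGF.

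The RCAS/tva system was used to make the tumours: avian retroviruses enter only those mouse cells that carry the tva receptor. The carrier mice are called Ntva, a line in which the nestin promoter directs tva to neural progenitors. All the mice were adults on mixed FVB/N, C57BL6, BALB/C and 129 backgrounds that were Ink4a/Arf+/- or Ink4a/Arf-/-, and which mouse had which genotype is not stated. Both groups received chicken DF1 fibroblasts producing a PDGFb virus in the right frontal cortex, mixed with DF1 fibroblasts producing a HoxA5 virus (HoxA5 tumours, n = 2) or an mCherry virus (mCherry tumours, n = 4, the control group). HOXA5 is a homeobox transcription factor, and the question posed was whether its gain makes these PDGF-driven gliomas more aggressive. Nothing in the labels says that the tumours came from separate mice, so the p-values speak for the spread among these 6 samples, which may be technical. The tissue was bulk tumour, in which fewer cells of a type and less RNA per cell cannot be told apart.

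Between 19950 and 21904 probes per array were detected (detection p under 0.05), with median intensities of 136.1 to 166.8. The array's Hoxa5 probe was detected on 0 of 6 arrays (detection p 0.0652 to 0.771), so it gave no check of the group labels, and whether the viral insert holds its target is not stated. The brightest Pdgfb probe was detected on all 6 arrays, with a log2 difference of 0.32 between the groups (limma adjusted p = 0.682). The 7 glioma and progenitor cell markers that could be tested included Pdgfra, Olig1 and Sox10, each detected on all 6 arrays, and 0 of the 7 passed limma's test (2 with an unadjusted p under 0.05). Across genes, HoxA5 1 and HoxA5 2 correlated at 0.968. The mCherry 4 array correlated slightly more with them (0.963 and 0.962) than with any array of its own group (0.921 to 0.957). Many markers of normal brain cells were lower in the HoxA5 tumours: 8 of 9 neuron genes, 6 of 7 myelinating oligodendrocyte genes, 2 of 8 astrocyte genes and 3 of 4 choroid plexus genes passed the test as lower. Of the mural and fibroblast genes 5 of 7, and of the mitosis genes 3 of 7, passed as higher, while 0 of 7 microglia and macrophage genes and 0 of 6 endothelial genes passed in either direction (0 and 1 with an unadjusted p under 0.05).

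None of the 8 tested genes passed limma's test of HoxA5 against mCherry (Benjamini-Hochberg adjusted p under 0.05 over all 12242 genes). Among all genes, 1.39% were called higher and 4.96% lower in HoxA5 tumours, so that 21.9% of the calls were higher (37.1% with median scaling in place of quantile normalization). Etv4 and Etv1 had the lowest p-values, were higher in both HoxA5 tumours than in every mCherry tumour, and had unadjusted p under 0.05. They are 2 of 8 on either count, beside 11.6% of all genes with an unadjusted p under 0.05 and higher, and 18.3% without overlap and higher. In the lower direction 0 of 8 met either criterion, beside 13.1% and 17.2% of all genes. All 8 differences were above 0, with a median of 0.42 on the log2 scale, where the median of all genes was 0.07 and 6714 of 12242 were above 0. Without mCherry 3 the median of the 8 was 0.115. With the replicate number as a block it was 0.174, and Etv5, Dusp4 and Spred1 were then below 0.

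**Figure D1:**
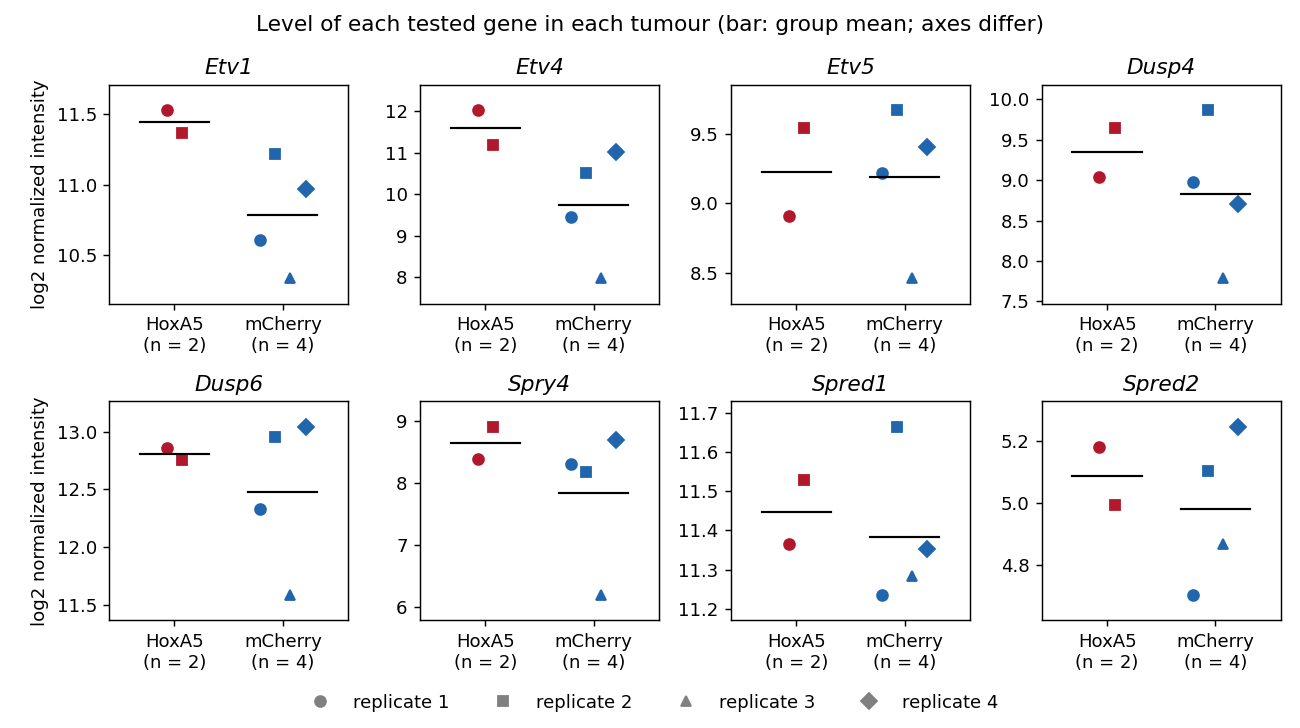
Normalized log2 intensity (vertical axes, each with its own range) of the 8 tested genes in each tumour, with HoxA5 tumours in red (n = 2), mCherry tumours in blue (n = 4) and the group mean as a bar. Etv1 and Etv4 do not overlap between the groups, and the mCherry 3 tumour (triangle) is the lowest point for 6 of the 8 genes.

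The upstream sequences of Dusp6 and Spred1 are shown as examples. ETS factors bind a GGAA core, and both windows hold CGGAA, this core with a C before it, upstream of the start. GGAA after any other base was not searched for and is not marked below. The Spred2 window, not shown, also holds CGGAA upstream, beginning 231 and 42 bases before the start. The table of RefSeq promoters (GRCm38.p6) held 9 start sites of 7 of the 10 genes, each with 250 bases before and 50 after the start. The bases upstream of Dusp6, at chr10:99262981-99263230 on the plus strand, and of Spred1, at chr2:117120821-117121070 on the plus strand, read as follows, with capitals marking CGGAA or its reverse complement TTCCG.
Dusp6: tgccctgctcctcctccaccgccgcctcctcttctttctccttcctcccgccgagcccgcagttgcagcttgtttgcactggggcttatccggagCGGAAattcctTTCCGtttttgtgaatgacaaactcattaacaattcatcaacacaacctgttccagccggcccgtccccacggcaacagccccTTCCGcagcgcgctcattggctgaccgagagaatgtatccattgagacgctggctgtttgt
Spred1: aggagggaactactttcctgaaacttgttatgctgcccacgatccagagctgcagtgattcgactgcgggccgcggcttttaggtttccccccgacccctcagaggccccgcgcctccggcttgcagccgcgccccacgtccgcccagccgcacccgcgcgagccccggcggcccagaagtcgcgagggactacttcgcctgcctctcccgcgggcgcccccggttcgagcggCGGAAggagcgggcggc
Dusp6 holds 3 copies of this 5-letter sequence upstream of its start, beginning 155, 144 and 61 bases before it. Searched on both strands, CGGAA was present in 4 of the 9 windows (Dusp6, Spry2, Spred1 and Spred2), beside 29.9% of 32851 promoters. This 5-letter sequence was added to the search after the windows had been seen. The longer CCGGAA, which contains it, was in 1 of 9 windows (Spry2), beside 14.9% of all promoters, and CCGGAAGT in 0 of 9, beside 3.89%. The cyclic AMP response element TGACGTCA (1.79% of promoters) and the AP-1 element TGANTCA (7.81%) were each in 0 of the 9. A match of letters is a description of the sequence and shows no binding.

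Of the ETS factors, Etv4 (also called PEA3) is an activator whose transcript is switched on by ERK in many tissues. Its only probe read 12.02 and 11.18 in the HoxA5 tumours against 9.46, 10.51, 7.97 and 11.01 in the mCherry tumours, in normalized log2 intensity and, as throughout, in the order of the replicate numbers. Both HoxA5 arrays lay above all mCherry arrays, but the gap to mCherry 4 was small beside the spread of 3.04 among the mCherry arrays. The group means were 11.60 ± 0.596 (SD, n = 2) and 9.74 ± 1.34 (SD, n = 4). The difference of 1.86 (SE 0.704, 95% interval 0.29 to 3.44, 3.64-fold) was larger in size than that of 94.5% of genes, and its limma adjusted p was 0.142. Without mCherry 3 the difference was 1.27, and without mCherry 4 it was 2.30 with a limma adjusted p of 0.0533. With mCherry 4 left out, 8.54% of 12112 genes were called higher and 11.3% lower, and 0 of the 8 genes followed here were called.

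Etv1 (ER81) is a close relative of Etv4 that is made in subsets of neurons as well as in glial progenitors. Its brightest probe read 11.53 and 11.37 in the HoxA5 tumours against 10.61, 11.22, 10.34 and 10.97 on the mCherry arrays. The groups did not overlap, with mCherry 2 closest to the HoxA5 arrays and mCherry 3 lowest. The means were 11.45 ± 0.114 (SD, n = 2) and 10.78 ± 0.390 (SD, n = 4). They differed by 0.67 (SE 0.285, 95% interval 0.03 to 1.30, 1.59-fold) with a limma adjusted p of 0.187. Over the other processing choices and left-out arrays the Etv1 difference stayed between 0.51 and 0.84.

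Etv5 (ERM), the third of these factors, a regulator of gliogenesis, showed no such pattern. It read 8.91 and 9.54 in the HoxA5 tumours against 9.21, 9.67, 8.46 and 9.40 on the mCherry arrays. HoxA5 1 was above only mCherry 3, and mCherry 2 the highest. The difference was 0.04 (SE 0.374, 95% interval -0.80 to 0.87; limma adjusted p = 0.964), and it was -0.20 without mCherry 3 and -0.28 without HoxA5 2. The other Etv5 probe, detected on all 6 arrays, gave a difference of 0.20.

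Of the phosphatases, Dusp6 (MKP-3) is a cytoplasmic enzyme specific for ERK and one of the most direct transcriptional readouts of the pathway. It read 12.86 and 12.75 in the HoxA5 tumours against 12.33, 12.96, 11.59 and 13.04 on the mCherry arrays. The HoxA5 values were within the range of the mCherry values, below mCherry 2 and mCherry 4. The difference was 0.33 (SE 0.374, 95% interval -0.51 to 1.17; limma adjusted p = 0.619), and 0.03 without mCherry 3.

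Dusp4 (MKP-2) is a nuclear phosphatase that acts on ERK and other MAP kinases. It read 9.04 and 9.64 in the HoxA5 tumours against 8.97, 9.87, 7.78 and 8.71 on the mCherry arrays, so that mCherry 2 was above both HoxA5 tumours. The difference was 0.51 (SE 0.500, 95% interval -0.61 to 1.63; limma adjusted p = 0.559), and 0.16 without mCherry 3.

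Sprouty proteins block the path from receptor to RAS and RAF. Of the Sprouty genes followed here (Spry1, Spry2 and Spry4), only Spry4 could be tested. It read 8.39 and 8.91 in the HoxA5 tumours against 8.31, 8.18, 6.19 and 8.70 on the mCherry arrays. All arrays but 1 lay close together, mCherry 4 was between the HoxA5 arrays, and mCherry 3 stood far below. The difference of 0.81 (SE 0.621, 95% interval -0.58 to 2.20, 1.75-fold; limma adjusted p = 0.451) was 0.26 without mCherry 3. The undetected Spry2 probe (detection p 0.0769 to 0.826) read 5.05 and 4.92 in the HoxA5 tumours against 4.43 to 4.77 on the mCherry arrays, values that are not above background.

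The Spred proteins bind RAS regulators, and Spred1 brings the RAS inactivator neurofibromin to the membrane. Spred1 was the most even of the genes, with 11.36 and 11.53 in the HoxA5 tumours against 11.24, 11.67, 11.28 and 11.35 on the mCherry arrays. The difference was 0.06 (SE 0.229, 95% interval -0.45 to 0.57; limma adjusted p = 0.892). Spred2 was near the detection limit: its brightest probe was detected on 0 of 2 HoxA5 and 2 of 4 mCherry arrays. It read 5.18 and 4.99 against 4.70, 5.10, 4.87 and 5.25, a difference of 0.11 (95% interval -0.49 to 0.70; limma adjusted p = 0.835), and no fold is given. The intervals of Etv5, Dusp4, Dusp6, Spry4, Spred1 and Spred2 all hold 0, and those of Dusp4, Dusp6 and Spry4 also hold values above 1, a 2-fold difference.

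**Figure D2:**
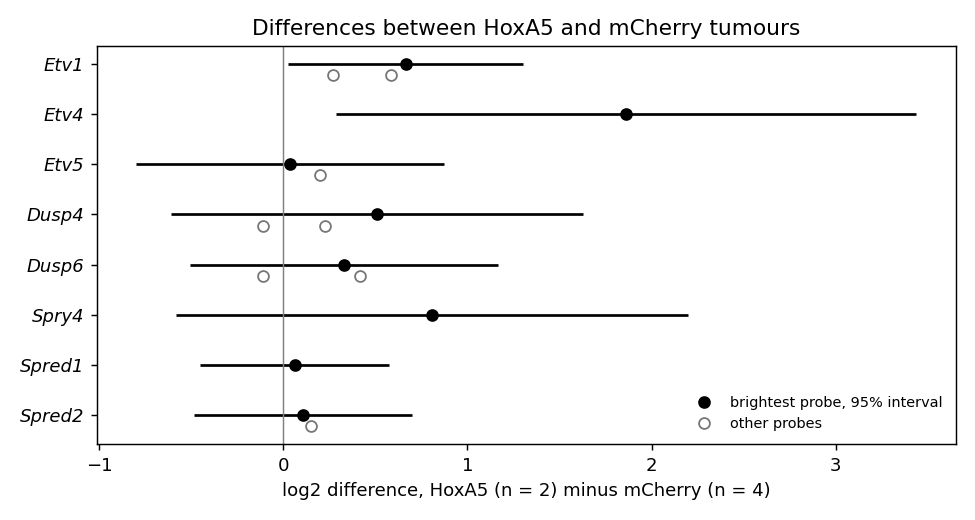
Log2 difference, HoxA5 (n = 2) minus mCherry (n = 4), of each tested gene with its 95% interval from limma (filled points and lines), and of the gene's other kept probes (open points). The intervals of Etv1 (0.03 to 1.30) and Etv4 (0.29 to 3.44) lie above 0, and the other 6 hold 0.

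For each of the 8 genes the range among the mCherry tumours was wider than the difference between the group means. The mCherry 3 tumour was the lowest of the 6 arrays for Etv1, Etv4, Etv5, Dusp4, Dusp6 and Spry4, which is 6 of 8 (75%), beside 22.5% of all genes. Relative to the mean of the other mCherry tumours, mCherry 3 differed by -2.36 for Etv4, -2.21 for Spry4, -1.40 for Dusp4, -1.19 for Dusp6, -0.96 for Etv5 and -0.60 for Etv1 on the log2 scale. Spred1 and Spred2 did not share this, with differences of -0.13 and -0.15, and both were lowest on mCherry 1. The mean level of the 8 genes was 9.91 and 9.99 in the HoxA5 tumours against 9.35, 9.90, 8.56 and 9.80 on the mCherry arrays, so mCherry 2 and mCherry 4 lay close to the HoxA5 arrays.

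The same array also stood apart in the cell markers. The mean of the glioma and progenitor list was 9.05 on mCherry 3, 10.35 to 10.91 on the other mCherry arrays, and 11.01 and 11.31 on the HoxA5 arrays, and mCherry 3 was lowest for 7 of its 7 genes. The mitosis list mean was 6.13 on mCherry 3, 7.72, 7.78 and 9.16 on mCherry 1, 2 and 4, and 10.03 and 10.40 on the HoxA5 arrays, again with mCherry 3 lowest for 7 of 7 genes. The neuron list mean was 12.13 on mCherry 3, 10.71 to 11.77 on the other mCherry arrays, and 9.35 and 8.45 on the HoxA5 arrays, and 6 of its 9 genes were highest on mCherry 3. Mural and fibroblast genes had a list mean of 9.76 and 8.83 on the HoxA5 arrays and 7.42 to 8.30 on the mCherry arrays. Snap25 and Nefl of the neuron list and Bub1 of the mitosis list were not detected on at least 2 arrays and do not enter these means. Etv4 and the mitosis list ordered the 4 mCherry tumours alike, with mCherry 3 lowest and mCherry 4 highest, while the HoxA5 tumours ran the opposite way. The part of these cell markers in the levels of the 8 genes was not tested.

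**Figure D3:**
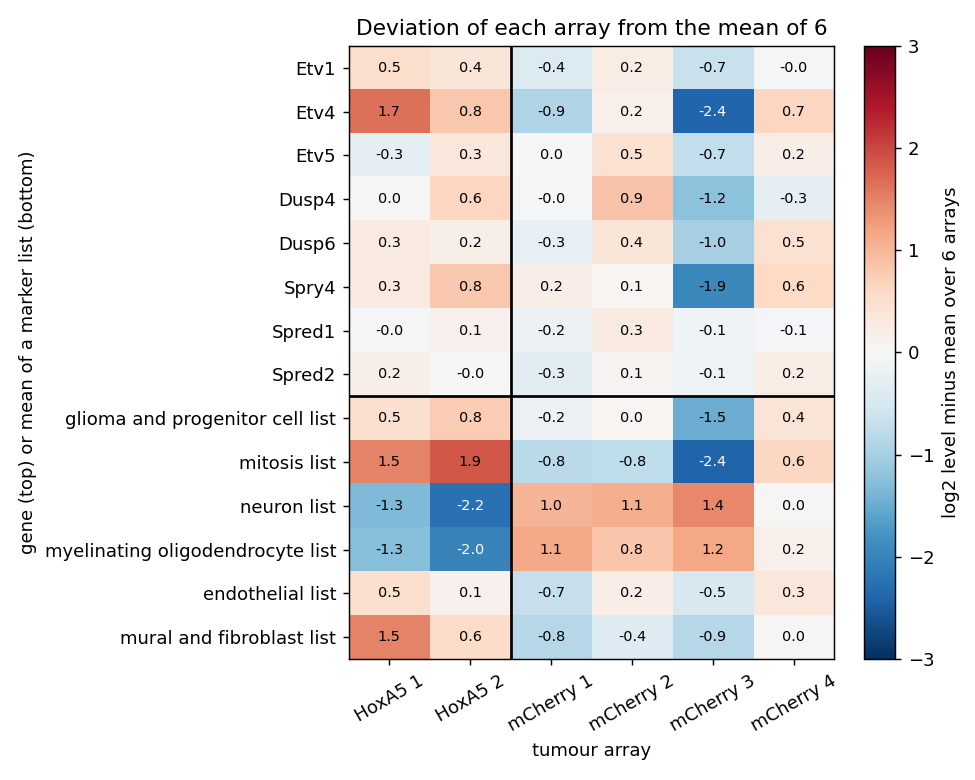
Log2 level of each gene (top) and mean log2 level of 6 marker lists (bottom) on each tumour array, minus its mean over the 6 arrays, with red above and blue below that mean. The mCherry 3 column is blue for Etv4, Dusp4, Dusp6, Spry4 and for the glioma and mitosis lists, and red for the neuron list.

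**Figure D4:**
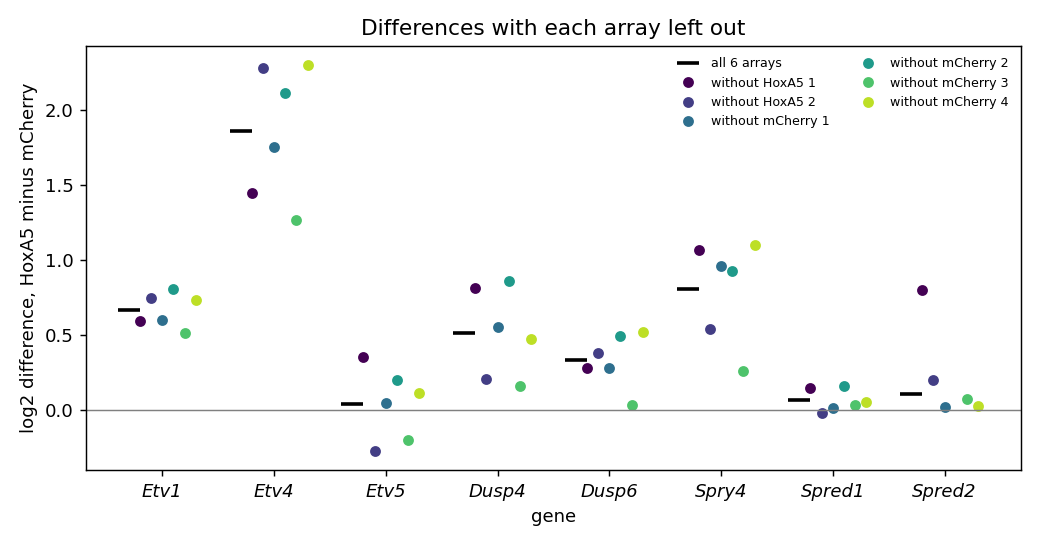
Log2 difference, HoxA5 minus mCherry, of each gene with all 6 arrays (bar) and with each array left out in turn (points). Leaving out mCherry 3 moves Etv4 from 1.86 to 1.27, Spry4 from 0.81 to 0.26 and Dusp6 from 0.33 to 0.03. The Spred2 points at 0.80 (without HoxA5 1) and 0.025 (without mCherry 4) come from its other kept probe.

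Different probes of a gene did not always tell the same story. The 2 other Etv1 probes were highest on HoxA5 2 and mCherry 1, with 5.47 and 7.36 in the HoxA5 tumours against 7.33, 5.67, 5.32 and 6.26 on the mCherry arrays for one of them. For the other the HoxA5 values were 6.38 and 7.35, and the mCherry values 7.39, 5.91, 5.41 and 6.38. On both of these probes the groups overlapped, with differences of 0.27 and 0.59, so the separation of Etv1 rests on its brightest probe. The dimmest Dusp6 probe, detected on 3 arrays, also had its highest values on mCherry 1 (6.39) and HoxA5 2 (6.00) and gave a difference of -0.11. This pair of arrays held the highest values in 3 of the 8 kept probes of these genes that were not the brightest of their gene, beside 13.6% of 7237 such probes over all genes and 8.73% of 4858 brightest probes. The pair was singled out because these same 3 probes peaked on it, and 2 of the 3 are of Etv1, so the comparison is a description only.

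For Dusp4 the 3 kept probes all peaked on mCherry 2, at 9.87, 9.09 and 7.51. Their group differences were 0.51, 0.23 and -0.11. The other Dusp6 probe detected on all 6 arrays gave 0.42 and had its lowest value, 8.48, on mCherry 3, as the brightest did.

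**Figure D5:**
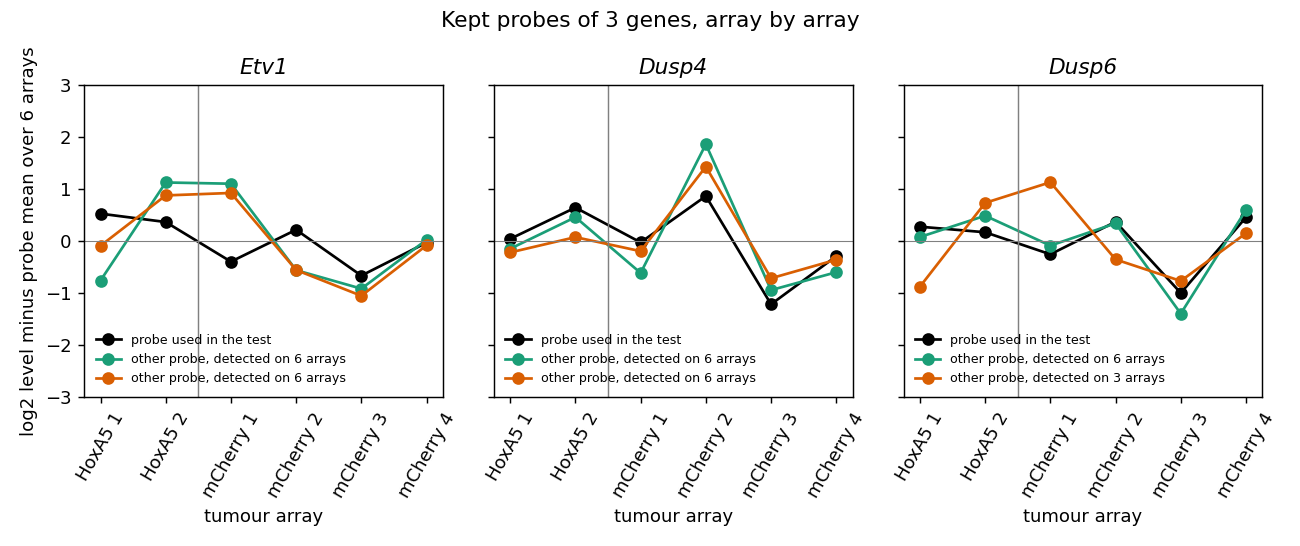
Log2 level of each kept probe of Etv1, Dusp4 and Dusp6 on the 6 tumour arrays, minus that probe's mean, with the probe used in the test in black. The Dusp4 probes all peak on mCherry 2, while 2 Etv1 probes and 1 Dusp6 probe peak on HoxA5 2 and mCherry 1 and part from the probe used.

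Genes whose profile over the 6 arrays was most like each gene were found by the root mean square distance between log2 values centred on each gene's own mean, over 9434 genes detected on every array. For Etv4 these were Rad54l, a DNA recombination repair factor (distance 0.166), and Fcrls, a microglial receptor in mouse (0.235), where the median distance of all candidates to Etv4 was 1.31. Those for Etv1 were Rtkn (0.0562) and Lrch3 (0.0809), and for Etv5 they were Ctnnd1 (0.0951), which encodes p120 catenin, and Prkcq (0.114). For Spry4 they were Adm (0.0973), the vasodilator peptide adrenomedullin, and Tnfrsf12a (0.196), the receptor Fn14. Dusp4 lay nearest Cdkn1a, the cell cycle inhibitor p21 (0.242), and Peli1 (0.246). Dusp6 lay nearest Fam167a (0.131) and Kcnip3 (0.132). Spred1, which varied little, lay nearest Tox4 (0.0397) and Kpna1 (0.0442), and Spred2 nearest Ppfia1 (0.0486) and Eya3 (0.0616).

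The lists of other pathway genes are read beside the shares of all genes called, 1.39% higher and 4.96% lower. At an unadjusted p under 0.05 the shares of all genes were 11.6% higher and 13.1% lower. Of 12 tested genes of MAPK output outside the 8, 0 passed in either direction by limma, and the median difference was 0.12. At an unadjusted p under 0.05, 3 were higher and 0 lower. Emp1, a membrane protein gene often induced by growth factors, had the lowest adjusted p. It read 12.41 and 11.86 in the HoxA5 tumours against 9.18, 10.92, 8.75 and 11.14 on the mCherry arrays, a difference of 2.14 (limma adjusted p = 0.0747) without overlap, and mCherry 3 was lowest here too. Phlda1 differed by 1.43 (limma adjusted p = 0.131) and Ier3 by 1.26 (limma adjusted p = 0.134). Ccnd1, the cyclin D1 gene, was also lowest on mCherry 3, at 12.64, and read 14.23 to 15.12 on the other 5 arrays.

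Of 9 tested dual-specificity phosphatases outside Dusp4 and Dusp6, 0 passed as higher and 1, Dusp8, passed as lower, with a median of -0.53. At an unadjusted p under 0.05, 1 was higher and 3 were lower. Dusp8, a phosphatase that prefers the stress kinases JNK and p38 and is abundant in brain, read 9.27 and 9.05 in the HoxA5 tumours against 10.56, 10.71, 11.07 and 9.90 on the mCherry arrays. It fell by 1.40 on the log2 scale without overlap (limma adjusted p = 0.0395). Dusp1, an immediate early phosphatase gene, differed by -1.62 (limma adjusted p = 0.0772), and Dusp2 by 1.36 (limma adjusted p = 0.0951).

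Of 14 tested receptor tyrosine kinases, 0 passed as higher and 1, Fgfr2, passed as lower, with a median of 0.05. At an unadjusted p under 0.05, 2 were higher and 2 were lower. Fgfr2, an FGF receptor that in brain is strongest in glia, read 8.81 and 8.92 in the HoxA5 tumours against 10.16, 11.12, 10.96 and 9.71 on the mCherry arrays. It fell by 1.63 on the log2 scale (limma adjusted p = 0.0434), and both HoxA5 arrays lay below all mCherry arrays. For Dusp8 and Fgfr2 alike, leaving out any single array other than mCherry 4 ended the call, with limma adjusted p between 0.0585 and 0.251. Neuron markers were lower on the same arrays, with a median difference of -3.13 on the log2 scale, with list means of 8.45 and 9.35 on the HoxA5 arrays against 10.71 to 12.13 on the mCherry arrays, and their part in these 2 calls was not tested. The same holds for the myelinating oligodendrocyte list, with means of 9.50 and 8.76 against 10.92 to 11.92, and for the astrocyte list, with means of 10.94 and 10.89 against 11.29 to 12.04. Fgfr3 differed by -1.62 (limma adjusted p = 0.0847), and Ntrk3 by 0.77 (limma adjusted p = 0.184). Pdgfra, the main receptor for the PDGFb virus product in these progenitors, differed by 0.78 (limma adjusted p = 0.329).

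Of 17 tested members of the RAS-ERK cascade and of 13 other ETS factors, 0 passed in either direction by limma, with median differences of 0.54 and 0.61. At an unadjusted p under 0.05, 4 of the 17 were higher and 0 lower, and of the 13, 2 were higher and 1 lower. The shares of all genes were 11.6% higher and 13.1% lower. In the cascade the lowest adjusted p-values belonged to the RAS inactivators Nf1 (difference 1.13, limma adjusted p = 0.0893) and Rasa1 (0.82, limma adjusted p = 0.0987) and to the small GTPase Rras (0.89, limma adjusted p = 0.104). Among the ETS factors they belonged to Elf2 (1.29, limma adjusted p = 0.102), Ets2 (-0.75, limma adjusted p = 0.180) and Elk4 (0.95, limma adjusted p = 0.198).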

How the data were processed

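RNA from 6 tumours was hybridised to Illumina mouse bead arrays, 1 per tumour. The authors deposited linear probe intensities without normalization between arrays, and a detection p-value for each, per the file headers. The authors also deposited log2 values, made with limma per the submitters' processing notes. Their medians were 7.289 to 7.290 and they differed from log2 quantile-normalized intensities by at most 0.135, so they were taken as uncentred, and their background step is not stated.

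Intensities were normalized by the neqc function (limma 3.58.1, R 4.3.3; normal-exponential background, quantile normalization, offset 16), which understates differences of dim probes. Of the probes, 34885 had a single gene symbol, 10378 had none and 18 had several. Those with 1 symbol and a detection p under 0.05 on at least 2 arrays were kept (19479), and the brightest represented each of 12242 genes. HoxA5 was compared with mCherry by lmFit and eBayes with a trend and robust prior, with Benjamini-Hochberg adjustment over all genes; the script was tested on simulated data. Alternatives changed the background correction, scaling, filter, probe choice, prior, array weights, threshold and replicate block, used the authors' values, and left out each array. The number of arrays limits the precision.

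The genes, the lists (5 of the pathway, 9 of cell markers) and the alternatives were chosen with earlier results of these data known. All 10 genes are named; of each pathway list, called genes and up to 3 with the smallest p; and the 2 nearest profiles of each tested gene. Ccnd1 and Pdgfra were named after their values were seen. Gene symbols were looked up in RefSeq tables of GRCm38.p6. The arrays' probes have no coordinates here.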

Additional observations from a re-analysis of the deposited data

Results flagged for a closer look

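A value was singled out where, among the 4 mCherry tumours, the highest or lowest lay so far from the nearest other that the gap divided by the range exceeded Dixon's critical value at the 0.05 level. Of 16 probes of the genes followed here and 21 other genes examined, 5 had such a value. The rule's nominal rate of about 1 in 20 holds for independent normal values. Several of the probes are of the same gene and all share the same arrays, so the count is not a test. On mCherry 2, the Dusp4 probe ILMN_2689731 read 9.093, with the other mCherry tumours at 6.287 to 6.631. On the same array Dusp5, an ERK phosphatase of the nucleus, read 10.37 (others 7.273 to 7.5), Errfi1, a feedback inhibitor of the EGF receptor, read 12.24 (others 10.33 to 10.6), and Spry3 read 9.647 (others 8.837 to 8.912). On mCherry 3, Myc read 4.586, with the others at 5.082 to 5.122, but its probe was detected on only 1 of 2 HoxA5 and 1 of 4 mCherry arrays, so these values lie near background and are not read as a difference. All but 1 of the 5 values were therefore high values on the mCherry 2 tumour. The other genes examined were those of MAPK output and the other dual-specificity phosphatases, so this cannot show that feedback genes in particular stand out there. The other ETS factors were not examined, and Etv3 among them also read high on mCherry 2, at 8.62 (others 6.93 to 7.06). No share over all genes is given beside it, and what sets that tumour apart was not tested.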

How the results depend on the processing

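In all 17 alternatives 0 of the tested genes followed here were called by limma in either direction. From 0 to 2 of them had an unadjusted p under 0.05, or 3 without the detection filter, where the undetected Spry2 probe was also tested. The median difference of these genes ran from 0.115 (without mCherry 3) to 0.809 (without mCherry 2). The latter is over 7 genes, because Spred2 was not tested there, so the 2 ends do not cover the same genes. The Etv4 difference ran from 1.27 to 2.30 (limma adjusted p 0.0533 to 0.528), and those of Etv1, Dusp6 and Spry4 also stayed above 0. The counts over all genes, 170 higher and 607 lower, moved more. Without background correction 369 genes were called lower, and with the authors' values 378. Median scaling gave 258 higher, genes detected on all arrays 100 and eBayes without trend and robust prior 101. Array weights gave 639 higher and 1107 lower, and an adjusted p under 0.1 gave 518 and 1012. With 1 array left out the counts ran from 0 (limma, without HoxA5 2, where 822 genes were higher at an unadjusted p under 0.05) to 1034 higher, and from 2 to 1365 lower, both highest without mCherry 4. With 1 HoxA5 array left out, the other is assumed to vary like the mCherry arrays. Median scaling raised the all-gene median from 0.07 to 0.20 and that of the genes followed here from 0.42 to 0.61. Dusp8 lost its call in 11 alternatives and Fgfr2 in 10 of 17. The labels do not say whether shared replicate numbers pair the tumours. The correlations of deviations for the 2 shared numbers were -0.364 and -0.236. With 2 HoxA5 arrays the HoxA5 deviations are opposite by construction, so these values cannot decide whether the tumours are paired. With the replicate block, which compares only replicates 1 and 2 of each group, 230 genes were called higher and 660 lower. The median difference was then 0.17, and Etv5 (-0.217), Dusp4 (-0.0763) and Spred1 (-0.00287) turned below 0. With arrays left out, Etv5 ran from -0.28 to 0.35 and Spred1 from -0.0216 to 0.157, and Spred2 could not be tested without mCherry 2. The cause of these changes was not tested. The alternative without a robust prior (148 higher, 568 lower) was added after seeing the data.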
